A study of Rattus norvegicus with 9 samples.

Results

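The 6 genes examined here, Upp1, Upp2, Tymp, Dpyd, Dpys and Upb1, encode the phosphorylases that open pyrimidine nucleosides and the enzymes that then degrade the free bases. They were picked by name through the RefSeq accession of each array probe, out of 13438 genes with a named probe, and 8 probes matched them. Upp2 was known from earlier results of these arrays to lie far lower in TBI than in control rats, so TBI against control is given for all 6 genes as a description, without a test. The livers came from 9 male Wistar rats 24 h after exposure, and the RNA of each was read on a single-colour Agilent rat array of its own. The controls (0 Gy, n = 3) received neither radiation nor drug. The TBI rats (n = 3) received 6.5 Gy of total-body irradiation from a 60Co source at 2 Gy/min. The HSC + TBI rats (n = 3) received Hong Shan Capsule (HSC), a mixture of crude herbal drugs, by stomach tube on 3 consecutive days before the same 6.5 Gy. The HSC dose stands as 10 g/kg/day in the study's methods and as 30 mg/kg/day in the sample labels, and it entered no calculation. The age of the rats was not given in the sources used here, and rats given HSC without radiation were not analysed here, so an effect of HSC by itself cannot be told apart from its effect in irradiated rats.

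Uridine phosphorylases split uridine into uracil and ribose-1-phosphate, and so take part in setting the uridine level of liver and blood. Upp1 is the widely expressed form and is known to be inducible by cytokines, whereas Upp2 is found mainly in liver and kidney. Thymidine phosphorylase, the product of Tymp, does the same for thymidine. Uracil and thymine are then reduced by dihydropyrimidine dehydrogenase (Dpyd), the rate-limiting step and the main route by which the drug 5-fluorouracil is removed. Dihydropyrimidinase (Dpys) opens the reduced ring, and beta-ureidopropionase (Upb1) releases beta-alanine or beta-aminoisobutyrate together with ammonia and carbon dioxide. The liver is the main site of the last 3 steps.

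Levels are given as log2 of the processed spot intensity after quantile normalization, so a difference of 1 is a doubling. All 8 probes were well above background on all 9 arrays, and all 8 were among the 25346 probes tested. Probes of different genes differ in brightness for reasons of their own, so a level is compared only between arrays and never between genes. Where the ranges of groups are said to overlap or not, this only describes the rats. The share of all tested probes whose ranges do not overlap was not counted. The 10 hepatocyte marker genes (Alb, Ttr, Hnf4a and others) were all detected, with a mean log2 level between 15.98 and 16.16 on every array. In TBI against control 5 of them had higher and 5 lower means, from -0.53 for Ttr to 0.52 for Cps1, which the list mean averages out. Quantile normalization also holds the brightest probes close together between arrays (SD of Tf 1.6e-05 in HSC + TBI rats). Its part in the steady list mean was not tested. In controls 56.6 to 59.3% of all probes stood above background, compared with 63.6 to 69.5% in TBI rats and 58.7 to 60.4% in HSC + TBI rats. Controls were hybridized on 1 slide, TBI rats on another and HSC + TBI rats on a further 2, so slide and group cannot be told apart. In whole liver, fewer cells of a type and less RNA per cell cannot be told apart either.

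Upp2, the liver form of uridine phosphorylase, was the gene of the pathway with the widest range. Its log2 level was 10.45, 11.17 and 10.10 in the 3 control rats. It was 4.96, 7.46 and 6.94 in the 3 TBI rats. It was 7.76, 5.48 and 8.40 in the 3 HSC + TBI rats. Every irradiated rat, with or without HSC, lay below every control rat, and the gap between the lowest control and the highest irradiated rat was wider than the range of the controls.

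The mean log2 level of Upp2 was 10.57 ± 0.54 (SD, n = 3) in controls, 6.45 ± 1.32 (SD, n = 3) in TBI rats and 7.21 ± 1.54 (SD, n = 3) in HSC + TBI rats. The TBI mean lay 4.12 below the control mean on the log2 scale (log2 difference -4.12, SE 0.83), which is 17.4-fold lower. The HSC + TBI mean was 10.3-fold lower than the control mean, with a log2 difference of -3.36 (SE 0.83, 95% interval -5.25 to -1.46). With limma's Benjamini-Hochberg adjustment over all probes this gave an adjusted p of 0.0692, short of the threshold of 0.05. The controls are those of the comparison that Upp2 was chosen on, so this p is not independent of the choice. When 1 rat was left out, the limma adjusted p ran from 0.0406 without TBI replicate 1 to 0.203 without control replicate 2, and the difference was -2.49 without HSC + TBI replicate 2 (limma adjusted p = 0.157). The normexp background correction gave -2.43 with a limma adjusted p of 0.0191, and no filter on dim probes gave 0.131.

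Between the irradiated groups the ranges of Upp2 overlapped. The HSC + TBI mean was 0.76 above the TBI mean (log2, SE 0.83, 95% interval -1.13 to 2.66, limma adjusted p = 0.689). Leaving out 1 rat moved this difference from 0.015 without TBI replicate 1 to 1.63 without HSC + TBI replicate 2. The interval reaches from a level below that of the TBI rats to one several-fold above it, so neither a return toward the control level nor its lack was detectable with 3 rats a group. The spread itself was wide, since the SD of Upp2 was larger than that of 99% of tested probes in the TBI group and of 99.7% in the HSC + TBI group, against 93.1% in the controls. The low ends of the irradiated groups were TBI replicate 1 and HSC + TBI replicate 2.

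Upp1, the widely expressed uridine phosphorylase, showed another order of the groups, and its lowest values were in the rats that received HSC. Its log2 level was 9.44, 10.99 and 10.43 in controls. It was 9.23, 10.02 and 9.70 in TBI rats. It was 8.49, 8.79 and 8.82 in HSC + TBI rats. The HSC + TBI rats lay below all 6 other rats, whereas the control and TBI ranges overlapped.

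For Upp1 the mean log2 level was 10.29 ± 0.79 (SD, n = 3) in controls, 9.65 ± 0.40 (SD, n = 3) in TBI rats and 8.70 ± 0.18 (SD, n = 3) in HSC + TBI rats. TBI rats differed from controls by -0.64 (log2, SE 0.37). HSC + TBI rats differed from controls by -1.59 (log2, SE 0.37, 95% interval -2.43 to -0.75), a 3.01-fold lower level with a limma adjusted p of 0.0566. Leaving out control replicate 1, the lowest of the controls, gave -2.01 with a limma adjusted p of 0.00928, while leaving out control replicate 2, the highest, gave -1.24 with 0.142, and without control replicate 3 it was 0.179. A shift to the 75th percentile, the normexp background correction and a filter to probes above background on all 9 arrays put the limma adjusted p just under the threshold, at 0.0493, 0.0464 and 0.0472, and no filter on dim probes put it at 0.109. HSC + TBI rats differed from TBI rats by -0.95 (log2, SE 0.37, 95% interval -1.79 to -0.11, limma adjusted p = 0.252).

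**Figure D1:**
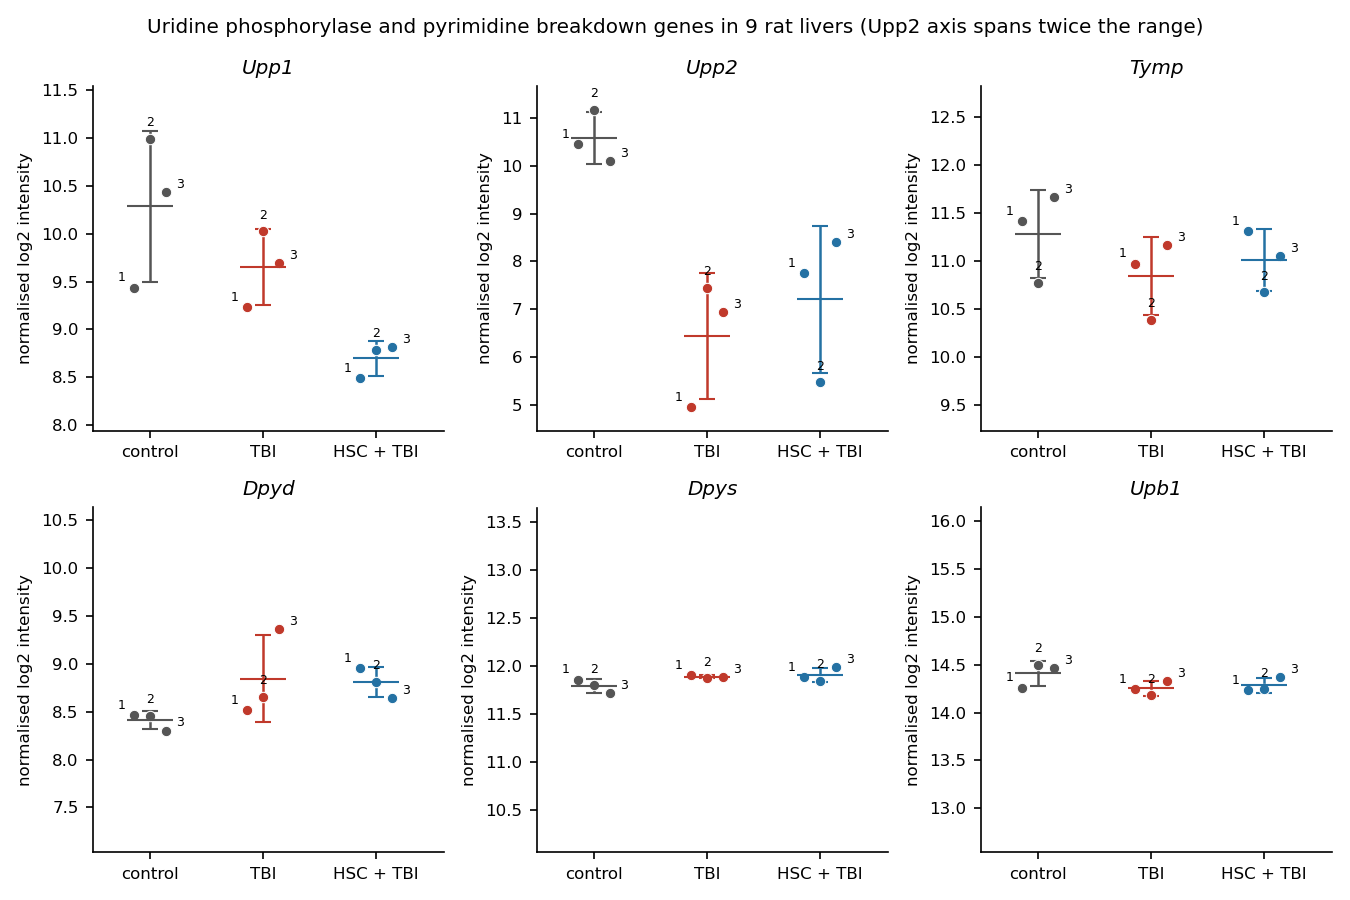
Log2 normalized intensity of the 6 genes in each rat (points, numbered by replicate), with the group mean and SD (horizontal line and bars, n = 3). All panels span the same log2 range except that of Upp2, which spans a range double as wide. Upp2 was lower in all 6 irradiated rats than in any control, Upp1 was lowest in the 3 HSC + TBI rats, and Dpys and Upb1 varied little.

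Markers of other cell types moved with Upp1 in part. The mean log2 level of the 6 tested lymphocyte markers, of 10 listed, was 6.18 to 6.78 in controls, 4.77 to 5.50 in TBI rats and 4.42 to 4.75 in HSC + TBI rats. Of these, limma called 2 lower in both irradiated groups, where it called 7.26% and 3.24% of all tested probes. The T-cell receptor gene Cd3g had -3.60 and -4.43, the log2 differences of TBI and of HSC + TBI rats from control. The B-cell receptor gene Cd79b had -2.91 and -3.26. Neither was above background on any HSC + TBI array, and Cd79b was above background on no TBI array either. Cd79b thus passed the filter through the controls alone. Differences from such groups rest on values at background level, so their size is uncertain. The other 4 were not called. Itgal (-0.85 and -2.14), Cd3d (-0.79 and -0.76) and Ptprc (-0.21 and -1.29) had lower means than control, and Lck had higher ones (0.55 and 0.41). The mean level of the 10 macrophage and Kupffer cell markers, all of them tested, was 11.04 to 11.76 in controls, 11.34 to 12.21 in TBI rats and 10.90 to 10.95 in HSC + TBI rats. In TBI against control the means of 9 of these 10 were higher, with a median log2 difference of 0.28, where that of Upp1 was -0.64. All 10 had lower means in HSC + TBI than in control and in TBI rats. Limma called 0 of them in HSC + TBI against TBI, with 9 at an unadjusted p under 0.05 (16.3% of all tested probes) and 7 by the methods' t-test (5.37% of all). Over the 9 arrays Upp1 had a Pearson r of 0.89 with the lymphocyte list and 0.73 with the macrophage list. For the deviations from the group means r was 0.81 and 0.90. Of the 6 lymphocyte probes 2 were above background on all 9 arrays, so that list mean and its r rest partly on values near background. All 10 macrophage probes were above background on all 9 arrays. With the 4 tested sinusoidal endothelial markers the r of Upp1 was 0.62, and 0.80 for the deviations. With the 4 tested erythroid markers it was 0.003, and -0.43 for the deviations. The same r of Upp1 with the hepatocyte list was -0.15, and 0.26 for the deviations. The arrays of a group share a slide or slides and these correlations carry no test. The part of these cells in the Upp1 values was not tested.

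**Figure D2:**
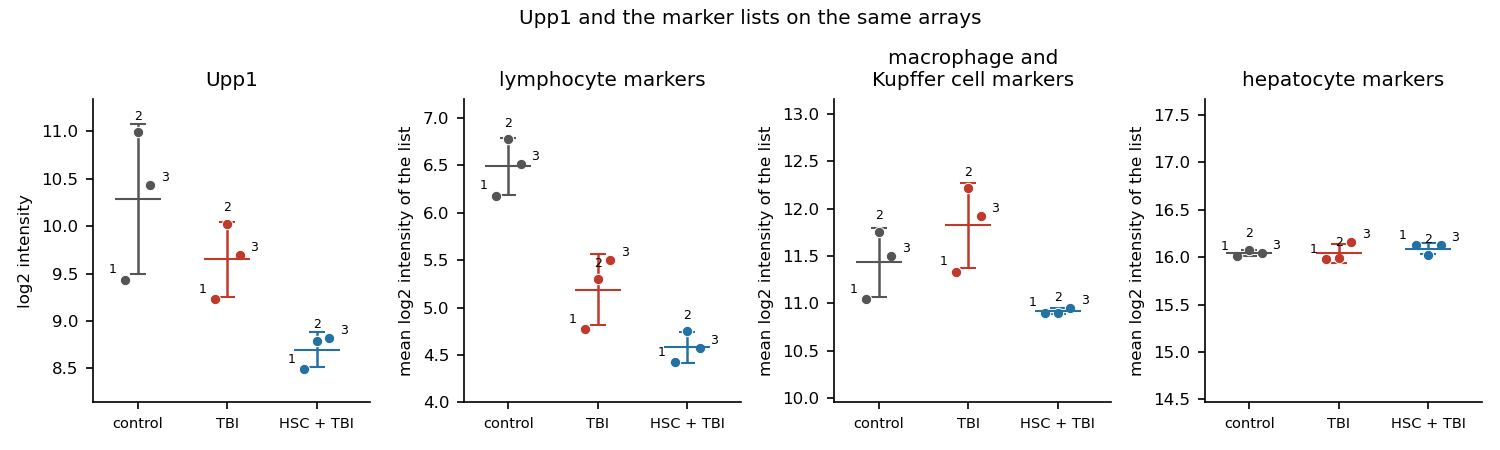
Log2 intensity of Upp1 and mean log2 intensity of the lymphocyte, macrophage and Kupffer cell, and hepatocyte marker lists in each rat (points, numbered by replicate), with the group mean and SD (n = 3), all panels spanning the same log2 range. In the HSC + TBI rats the macrophage list lay at 10.90 to 10.95 and Upp1 at 8.49 to 8.82, the lowest values of each. The hepatocyte list mean, which averages genes that moved in both directions, lay between 15.98 and 16.16 over all rats.

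The r of Upp2 was lower than that of Upp1 with the lymphocyte and macrophage lists and higher with the hepatocyte list. It was 0.78 over the 9 arrays with the lymphocyte list and 0.10 with the macrophage list, and 0.33 and 0.60 for the deviations from the group means. With the hepatocyte list its r was 0.17, and 0.61 for the deviations, though that list mean spanned only 15.98 to 16.16 over the arrays. With the endothelial list the r of Upp2 was 0.06, and 0.58 for the deviations. For the deviations its r was thus similar with the hepatocyte, macrophage and endothelial lists. With the erythroid list it was 0.10, and 0.32 for the deviations. With the share of probes above background it was -0.56, and 0.28 for the deviations. Upp1 and Upp2 had an r of 0.60 with each other over the 9 arrays, and of 0.36 for the deviations. The part of cell composition in the Upp2 values was not tested.

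Tymp, which encodes thymidine phosphorylase, had overlapping ranges in all 3 comparisons. Its log2 level was 11.42, 10.77 and 11.66 in controls. It was 10.97, 10.39 and 11.16 in TBI rats, and 11.31, 10.67 and 11.05 in HSC + TBI rats. Replicate 2 was the lowest rat of each group, and the dimmer second Tymp probe gave the same lowest rat in each group. The replicate numbers carry no stated pairing between groups.

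Tymp had a mean log2 level of 11.28 ± 0.46 (SD, n = 3), 10.84 ± 0.40 (SD, n = 3) and 11.01 ± 0.32 (SD, n = 3) in control, TBI and HSC + TBI rats. TBI differed from control by -0.44 (log2, SE 0.29). HSC + TBI differed from control by -0.27 (log2, SE 0.29, 95% interval -0.93 to 0.38, limma adjusted p = 0.651) and from TBI by 0.17 (95% interval -0.49 to 0.83, limma adjusted p = 0.806). The second probe gave -0.57, -0.19 and 0.38 in the same order of comparisons.

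Dpyd, which encodes the rate-limiting dehydrogenase, lay slightly above the controls in all 6 irradiated rats. Its log2 level was 8.47, 8.46 and 8.30 in controls. It was 8.52, 8.65 and 9.36 in TBI rats, and 8.96, 8.81 and 8.64 in HSC + TBI rats. TBI replicate 3 was the highest rat, and TBI replicate 1 was only just above the highest control. The second Dpyd probe also had its highest value, 8.67, in TBI replicate 3.

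Dpyd had a mean log2 level of 8.41 ± 0.09 (SD, n = 3), 8.84 ± 0.45 (SD, n = 3) and 8.80 ± 0.16 (SD, n = 3) in control, TBI and HSC + TBI rats. TBI differed from control by 0.43 (log2, SE 0.21), and by 0.53 (SE 0.26) with the second probe. Without TBI replicate 3 the difference was 0.18, and that array also had the largest share of probes above background, 69.5%. The r of Dpyd with this share was 0.66 over the 9 arrays, and 0.82 for the deviations from the group means, and its part in the Dpyd values was not tested. HSC + TBI differed from control by 0.40 (log2, SE 0.21, 95% interval -0.09 to 0.88, limma adjusted p = 0.349), and by 0.57 (95% interval -0.01 to 1.16, limma adjusted p = 0.261) with the second probe. The irradiated groups differed by -0.04 (95% interval -0.52 to 0.45, limma adjusted p = 0.947).

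Dpys and Upb1, which encode the last 2 enzymes of the route, had the narrowest ranges of the 6 genes. The log2 level of Dpys was 11.86, 11.80 and 11.72 in controls. It was 11.90, 11.87 and 11.89 in TBI rats, and 11.89, 11.85 and 11.99 in HSC + TBI rats. The TBI values lay just above the controls, and the HSC + TBI values overlapped both groups.

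Dpys differed by 0.10 between TBI and control rats (log2, SE 0.10). It differed by 0.12 between HSC + TBI and control rats (95% interval -0.11 to 0.35, limma adjusted p = 0.573) and by 0.02 between HSC + TBI and TBI rats (95% interval -0.21 to 0.25, limma adjusted p = 0.938). In the TBI rats the SD of Dpys was 0.02, and 0.485% of tested probes had a smaller one.

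The log2 level of Upb1 was 14.26, 14.50 and 14.46 in controls. It was 14.24, 14.18 and 14.33 in TBI rats, and 14.24, 14.25 and 14.37 in HSC + TBI rats. All 3 ranges overlapped. Upb1 differed by -0.16 between TBI and control rats (log2, SE 0.11), by -0.12 between HSC + TBI and control rats (95% interval -0.38 to 0.14, limma adjusted p = 0.602) and by 0.03 between HSC + TBI and TBI rats (95% interval -0.22 to 0.29, limma adjusted p = 0.909). For Dpys and Upb1 the intervals of both tested comparisons lay between -0.38 and 0.35 on the log2 scale.

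Counted over the 6 genes, limma called 0 in HSC + TBI against control, where 3.24% of all tested probes were called, and 0 in HSC + TBI against TBI, where 0.797% were called. At an unadjusted p under 0.05 the counts were 2 (Upp1 and Upp2), where 19.6% of all tested probes passed, and 1 (Upp1), where 16.3% passed, close to a share of 1 in 6. With a minimum ratio of 1.5 and no adjustment, the methods' t-test gave 2 and 1, beside 8.12% and 5.37% of all, and after Benjamini-Hochberg adjustment 0 and 0. In TBI against control, the comparison that brought these genes together, 7.26% of all probes were called and 25.5% had an unadjusted p under 0.05. The 6 genes are not counted there, since Upp2 was chosen on it. The median log2 difference of the 6 genes was -0.30 for TBI against control, -0.20 for HSC + TBI against control and 0.03 for HSC + TBI against TBI, beside -0.01, 0.05 and 0.06 for all tested probes. The comparisons share rats with each other, so HSC + TBI against control uses the same controls as TBI against control.

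**Figure D3:**
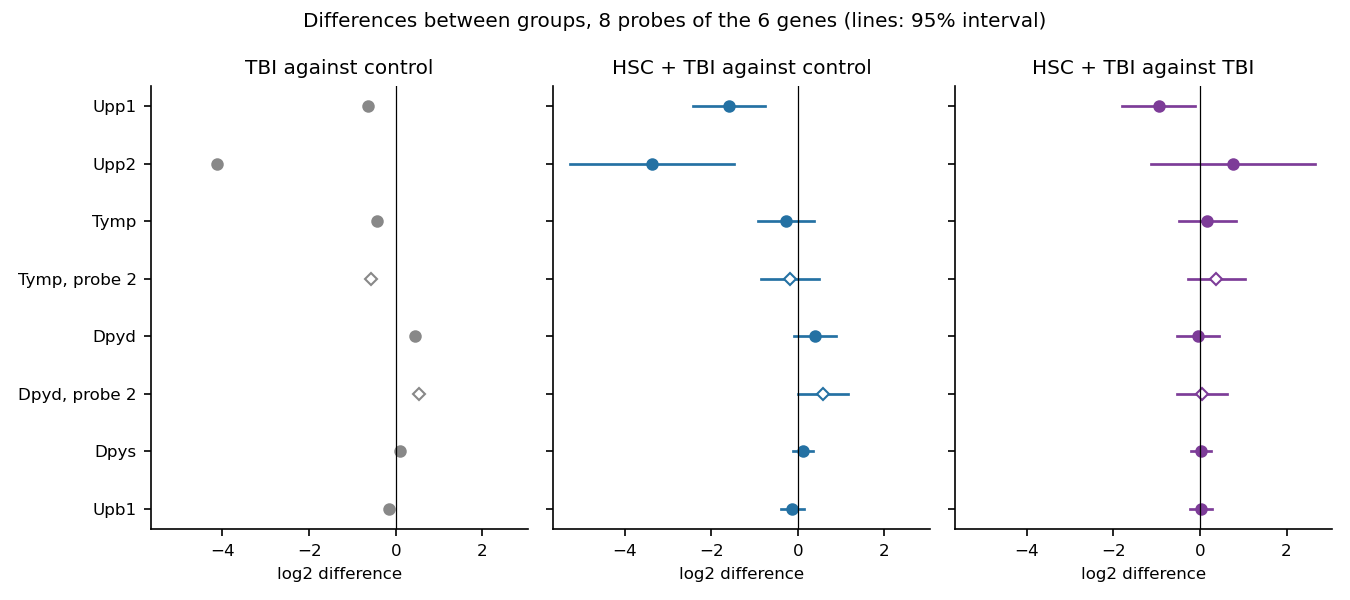
Log2 difference between groups for the 8 probes of the 6 genes (filled circles, brightest probe of a gene; open diamonds, second probe), with limma's 95% interval for the 2 tested comparisons and no interval for TBI against control. The intervals of Upp1 and Upp2 lay below 0 in HSC + TBI against control, and that of Upp1 did so in HSC + TBI against TBI, without passing the adjusted threshold.

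Around this route, 50 further genes of nucleotide metabolism were listed in 7 groups, 37 had a named probe and 32 were tested. Of the 32, limma called 1 higher and 2 lower in TBI against control, beside 7.26% of all tested probes, and 1 higher and 1 lower in HSC + TBI against control, beside 3.24%. In HSC + TBI against TBI limma called 0, with 5 at an unadjusted p under 0.05, a share close to the 16.3% of all tested probes, and 1 by the methods' t-test, beside 5.37% of all. The median log2 difference of the 32 genes was -0.10, 0.03 and 0.08, beside -0.01, 0.05 and 0.06 for all tested probes. Without TBI replicate 3, the number called was 5 in TBI against control and 1 in HSC + TBI against TBI. Of all 25346 tested probes, 2389 and 589 were called there.

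Tyms, thymidylate synthase, which makes the thymidine nucleotide for DNA from deoxyuridine nucleotide, rose in both irradiated groups. Its log2 level was 7.11, 7.11 and 7.31 in controls, 7.97, 8.11 and 8.27 in TBI rats and 8.16, 8.25 and 8.16 in HSC + TBI rats. The difference from control was 0.94 in TBI rats (log2, SE 0.12, limma adjusted p = 0.00395) and 1.02 in HSC + TBI rats (SE 0.12, limma adjusted p = 0.0037). With the normexp background correction these differences were 0.52 and 0.58, under the minimum of 1.5-fold, and the methods' t-test gave an adjusted p of 0.0691 in TBI rats. Tyms was the 1 gene called among the 3 tested of deamination and dUTP control, and the irradiated groups differed by 0.08 (limma adjusted p = 0.792).

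The salvage kinases, which return nucleosides and their monophosphates to the nucleotide pool, held the 2 genes that fell, among 8 tested. Cmpk2, a mitochondrial pyrimidine nucleotide kinase that is also induced by interferon, had a log2 level of 7.64, 9.01 and 8.83 in controls, 5.97, 6.31 and 6.41 in TBI rats and 5.32, 5.39 and 5.72 in HSC + TBI rats. It fell by 2.26 in TBI rats (log2, SE 0.33, limma adjusted p = 0.0066) and fell by 3.02 in HSC + TBI rats (limma adjusted p = 0.00271). The irradiated groups, which did not overlap, differed by -0.75 (limma adjusted p = 0.311). With the normexp background correction the Cmpk2 differences from control were -1.35 in TBI rats and -1.58 in HSC + TBI rats. By the methods' t-test the adjusted p was 0.127 and 0.0917, so neither was called there. Tk1, the thymidine kinase of dividing cells, had a log2 level of 6.92, 7.33 and 7.49 in controls, 6.15, 6.55 and 6.45 in TBI rats and 6.32, 6.36 and 6.70 in HSC + TBI rats.

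Tk1 fell by 0.86 in TBI rats (log2, SE 0.19, limma adjusted p = 0.0286). This call was lost when control replicate 2 or 3 or TBI replicate 1 or 2 was left out (limma adjusted p from 0.0501 to 0.0978). It was also lost with the normexp background correction, where the difference was -0.42, under the minimum of 1.5-fold. With only the 2 groups compared the limma adjusted p was 0.0613, and the methods' t-test gave an adjusted p of 0.162. In HSC + TBI rats Tk1 differed from control by -0.79 (limma adjusted p = 0.0633). The mean of the lymphocyte list, though not Lck, lay lower in the same irradiated rats, as given above for Upp1, and its part in the Cmpk2 and Tk1 values was not tested.

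In the other 5 groups no gene was called, and the gene with the largest difference of each is given here. Ctps1 makes cytidine nucleotide from uridine nucleotide as the last step of de novo synthesis (4 genes tested). It differed by 0.73 in HSC + TBI against control (log2, SE 0.23, limma adjusted p = 0.131). The limma adjusted p was 0.0462 without TBI replicate 2 and 0.31 without HSC + TBI replicate 1. With the normexp background correction the difference of Ctps1 was 0.19, and its probe was above background on 2 of the 3 control arrays. Among the 3 tested 5'-nucleotidases, which remove phosphate from nucleotides, Nt5c3a differed by -0.45 in TBI against control (limma adjusted p = 0.165). With 1 rat left out its limma adjusted p ran from 0.0393 without TBI replicate 3 to 0.365 without TBI replicate 2.

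Slc28a1, a sodium-driven pyrimidine nucleoside transporter (5 transporters tested), had a log2 level of 4.52, 4.96 and 4.67 in controls, 6.73, 6.21 and 4.52 in TBI rats and 5.21, 4.43 and 5.09 in HSC + TBI rats. TBI replicates 1 and 2 stood above all other rats, and TBI replicate 3 lay at the level of the lowest control. The difference in TBI against control was 1.10 (log2, SE 0.50, limma adjusted p = 0.211). It was 0.65 without TBI replicate 1 (limma adjusted p = 0.417) and 1.75 without TBI replicate 3 (limma adjusted p = 0.0107). With the normexp background correction it was 0.35 (limma adjusted p = 0.241).

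Csad, a decarboxylase of taurine and beta-alanine metabolism (4 genes tested), differed by -0.67 in TBI against control (log2, SE 0.28, limma adjusted p = 0.174). Xdh, xanthine dehydrogenase of purine breakdown (5 genes tested), differed by -0.70 in HSC + TBI against TBI (log2, SE 0.33, limma adjusted p = 0.34). The purine group held no called gene in any comparison, and its median log2 difference was -0.03 in TBI and 0.14 in HSC + TBI rats against control.

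**Figure D4:**
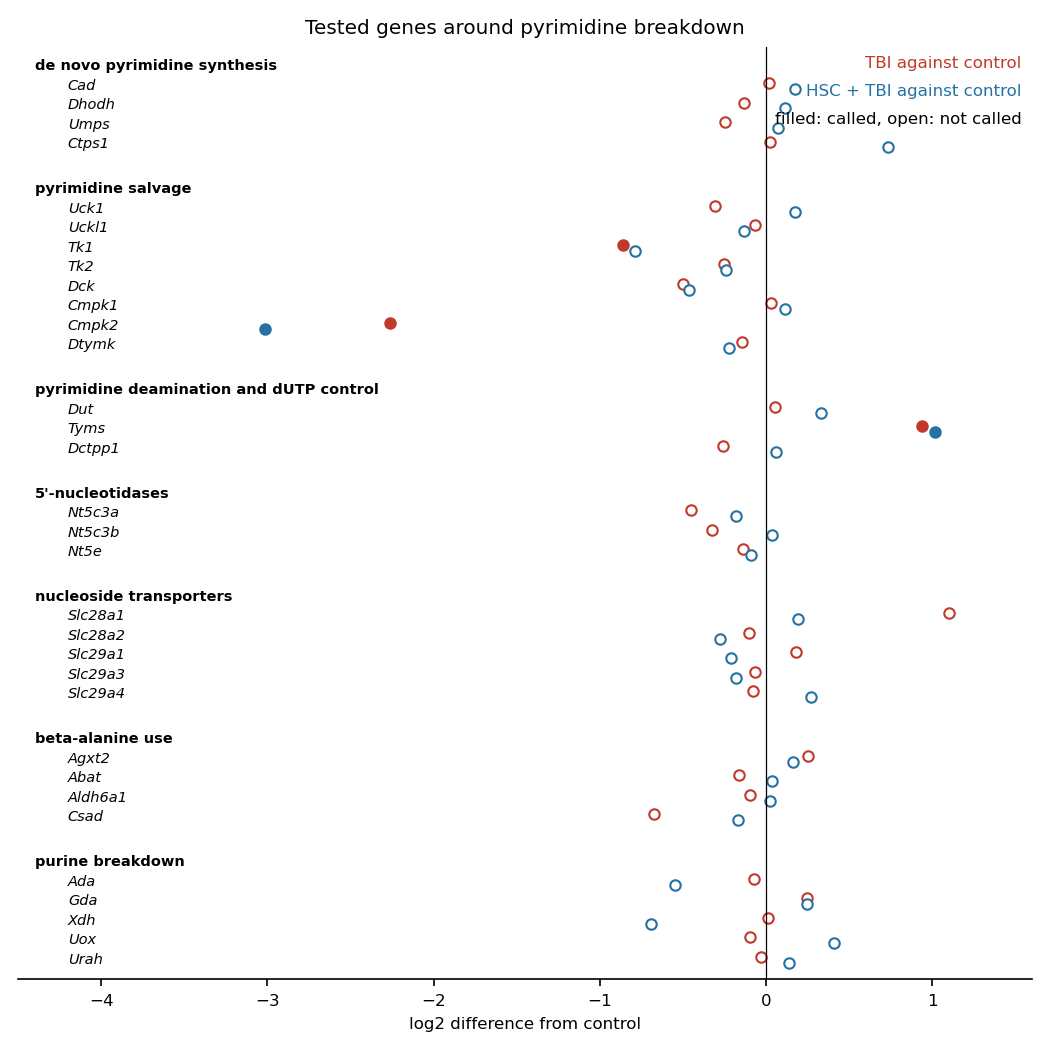
Log2 difference from control of the 32 tested genes around pyrimidine breakdown in TBI rats (red) and HSC + TBI rats (blue), by group of genes, with called genes filled (limma adjusted p under 0.05 and at least 1.5-fold). Tyms lay above control in both groups, Cmpk2 lay furthest below in both, and Tk1 was called in TBI rats.

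The genes whose pattern over the 9 arrays was most like that of Upp2, among 9598 other tested genes, were found by Pearson r and carry no test. The highest r was that of Serpina6, the blood carrier of glucocorticoids made in liver, at 0.98. It was followed by Fads2, a fatty acid desaturase, at 0.97, and by Impa2, an inositol monophosphatase, at 0.95. Wfdc1 and Sh3bp5 both had an r of 0.94.

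Serpina6 and Sh3bp5 had mean log2 differences from control of -1.17 and -1.35 in TBI rats and -0.99 and -1.04 in HSC + TBI rats, against -4.12 and -3.36 for Upp2. Within groups, r of the deviations from the group means was 0.91 for Serpina6 and 0.92 for Fads2. These genes were picked by their r with Upp2 over the same 9 arrays, so this agreement follows in part from that choice. The most unlike genes were Atp2a2, the calcium pump of the endoplasmic reticulum, at -0.97, Ppp1r1b and Tmem176a, both at -0.96, and Acsm3, a medium-chain acyl-CoA synthetase, and Slc25a22, a mitochondrial glutamate carrier, both at -0.95. The mean log2 level of Acsm3 was 8.51 in controls, 10.27 in TBI rats and 9.89 in HSC + TBI rats.

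The genes most like Upp1 differed from these. They were Rras, a small GTPase, and RGD1309362, both with an r of 0.99, Ly6cl1 and Gimap4, a GTPase of lymphocytes, both at 0.98, and Kcnk6, a potassium channel, at 0.97. The mean log2 level of Ly6cl1 was 7.50 in controls, 6.24 in TBI rats and 4.08 in HSC + TBI rats, the same order of groups as Upp1. Ly6cl1 was picked by its r with Upp1 on these arrays, so the shared order adds no separate evidence. The most unlike were Rad23b, a DNA repair factor, and Nomo1, both at -0.96, and Pfkfb2, Bola3 and As3mt, at -0.95, -0.95 and -0.94. All these r were taken over arrays that share group, slide and normalization, and of the 20 genes named, 12 were again among the 5 highest or lowest after the 75th percentile shift, 7 after the normexp background correction and 18 in the authors' normalized values.

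**Figure D5:**
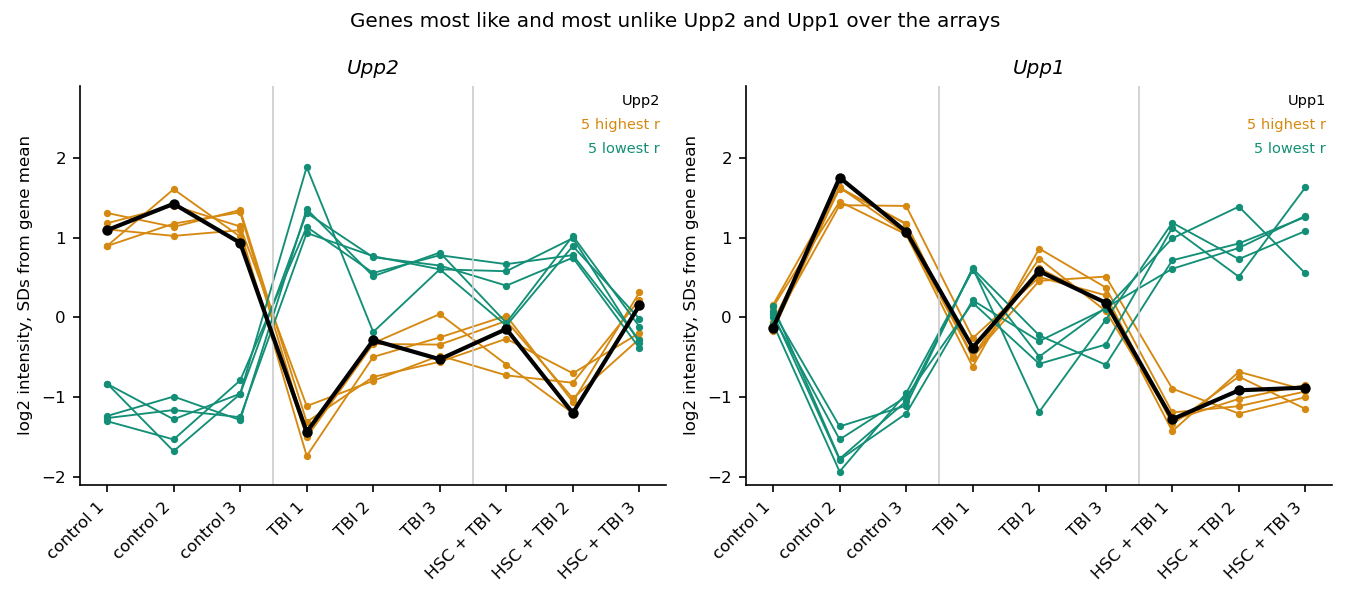
Log2 intensity of Upp2 (left) and Upp1 (right) on the 9 arrays (black), with the 5 genes of highest r (orange) and of lowest r (green), each as SDs from its own mean over the arrays. Upp2 separated the controls from both irradiated groups with low values in TBI replicate 1 and HSC + TBI replicate 2, and Upp1 was lowest in the 3 HSC + TBI rats.

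The other members did not share the pattern of Upp2. Their r with Upp2 over the 9 arrays was 0.66 for Upb1, 0.60 for Upp1, 0.39 for Tymp, -0.45 for Dpys and -0.48 for Dpyd, which placed Upb1 at rank 1020 and Dpyd at rank 7464 of 9598 genes.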

How the data were processed

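Liver RNA of 9 rats was measured, 1 array per rat. Per the file headers, the authors read the intensity of each spot in Feature Extraction (Agilent, 10.7.3.1), and its processed intensity was the start here. The authors also deposited log2 values normalized by quantiles, which served as an alternative. Control spots and outlier spots were left out, and processed intensities below 1 were raised to 1. Their log2 values were quantile normalized (limma 3.58.1, R 4.3.3) and averaged per probe. Of 25367 probes above background on all 3 arrays of a group, 21 had no usable spot on an array, which left 25346. Genes were named by RefSeq accession through a RefSeq gene table of GRCr8, which served for names alone. A gene with several probes was read by the brightest.

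Groups came from the sample labels. The 3 comparisons were made in 1 limma fit of the 3 group means, where a call needed at least a 1.5-fold difference and 0.05 as the limit of the Benjamini-Hochberg adjusted p. The labels do not say more of the replicates than that each is a rat. The scripts were tested on simulated data. The members, gene lists and tests were chosen with earlier results of these data known. Named were all members, genes of the wider lists that were called or otherwise had the largest difference of their list, and the 5 genes most like and most unlike Upp2 and Upp1. Endothelial and erythroid marker lists were also read: limma called 0 of 4 endothelial genes in each comparison (1, 2 and 0 at an unadjusted p under 0.05), and of 4 erythroid genes 1, 0 and 0 (3, 3 and 0 at an unadjusted p under 0.05). Of the 10 hepatocyte genes it called 0 in each (1, 0 and 0). Of all tested probes limma called 7.26, 3.24 and 0.797% in the 3 comparisons, and 25.5, 19.6 and 16.3% had an unadjusted p under 0.05. The alternatives were another scaling, another background correction, the authors' values, other filters, outlier spots kept, only the groups compared, the methods' t-test, no minimum fold, replicate and slide as blocks, the mean over probes, and each rat left out. The number of arrays limits the precision.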

Additional observations from a re-analysis of the deposited data

How the results depend on the processing

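No member was called in either tested comparison, so there was no called difference whose direction could be followed under the alternatives. Uncalled differences of Dpyd, Dpys, Tymp and Upb1 did change sign, as given below. Of the 6 members, 0 were called in HSC + TBI against control, beside 820 of all 25346 tested probes. This became 1 with the 75th percentile shift (954 of all probes) and 2 with normexp (489). It became 1 with probes above background on all 9 arrays (686 of 21736). By the methods' t-test with unadjusted p it became 2 (2059), with the replicate block 1 (779). With the slide as random block it became 2 (2575), though that block cannot separate slide from group. In HSC + TBI against TBI, 0 members (202 of all probes) became 1 by that t-test (1362) and 1 with the slide (2258). Without each rat in turn the member counts were 0 to 1 and 0 to 0. Members are not counted in TBI against control, the comparison that Upp2 was chosen on. Upp2 in TBI against control was -2.79 with normexp. The mean over probes turned Dpyd in HSC + TBI against TBI to 0.0024, and the 75th percentile shift turned Upb1 in HSC + TBI against control to 0.057 (limma adjusted p = 0.848). Without 1 rat, HSC + TBI against TBI ranged from 0.015 to 1.63 for Upp2, -0.20 to 0.22 for Dpyd, -0.021 to 0.051 for Dpys, -0.057 to 0.339 for Tymp, -0.011 to 0.074 for Upb1 and -0.045 to 0.158 for Tk1. The cause of these shifts was not tested.

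The number of all probes called was 1839 in TBI against control, 820 in HSC + TBI against control and 202 in HSC + TBI against TBI. With normexp it was 665, 489 and 6. By the methods' t-test with adjusted p it was 145, 100 and 2, and with unadjusted p it was 2059 and 1362 in the comparisons with HSC + TBI. With the slide as random block (consensus correlation -0.328) it was 4527, 2575 and 2258, but each slide holds rats of 1 group only, so this block cannot separate slide from group, and a negative correlation narrows the errors. With only the 2 groups compared, TBI against control gave 1180 and HSC + TBI against TBI 49. The last comparison gave 109 with no filter, 97 with the replicate block and 40 when a probe had to be above background on every array. Without each rat in turn the counts were 889 to 2389, 317 to 1027 and 28 to 948, the last extremes being without TBI replicate 2 and without TBI replicate 1.

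Of the 32 wider genes, 3, 2 and 0 were called. With normexp this was 1 in TBI against control and 1 in HSC + TBI against control. The t-test gave 4 and 1 with unadjusted p in the comparisons with HSC + TBI, and 0 and 1 with adjusted p in the comparisons with control. The slide block gave 5, 5 and 2. Without each rat in turn the counts were 2 to 5, 2 to 3 and 0 to 1. Of the 20 genes named for likeness, 12 recurred after the 75th percentile shift and 7 after normexp, settings chosen for this after seeing the data.

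The labels state no pairing by replicate number, and the rats were treated as unpaired. The deviations of same-numbered rats correlated at -0.144 to 0.191, and a rat correlated best with its own number in 6 of 18 cases. With 3 rats a group these values cannot exclude a pairing. The 95% intervals of Upp2, -5.25 to -1.46 and -1.13 to 2.66, show what 3 rats a group can resolve for a gene of its spread.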
